A study of Mus musculus with 6 samples.

Results

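The potassium channel genes of the newborn mouse cerebellum were compared between control animals and mutants lacking *Tox3* in the nervous system. Their members were all protein-coding genes of the count table whose symbol begins with Kcn, which gave 94 genes of the 54532 in the table. They were sorted by symbol into 17 voltage-gated subunits (Kcna to Kcnd), 15 inward rectifiers (Kcnj), 14 two-pore channels (Kcnk), 5 Kcnq and 8 Kcnh genes, 8 calcium- or sodium-activated channels, 10 electrically silent subunits, 16 auxiliary subunits and *Kcnrg*. The name alone decided membership, and no measured value entered that rule.

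Polyadenylated RNA of whole cerebellum was sequenced at postnatal day 1 in 3 control and 3 mutant libraries. Control animals were littermates that carried the conditional allele (Tox3 f/f) without Cre, and mutants carried the same allele with Nestin-cre (Nestin-cre;Tox3 f/f), in which the *Nestin* promoter drives Cre in neural progenitors, so that the neurons and macroglia derived from them are targeted. Since no control carried Cre, the transgene and the deletion cannot be told apart. The labels do not say whether each library came from a separate animal, and p-values measure the spread between these libraries, which may in part be technical.

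Potassium channels carry the outward current that sets the resting potential of a neuron and ends its action potentials. Inward rectifiers and two-pore channels act near rest, voltage-gated subunits open on depolarization, and calcium- or sodium-activated channels follow the ions that enter during firing. In the cerebellum, granule neurons are known for two-pore leak current, G protein-gated inward rectifiers and fast inactivating (A-type) voltage-gated current, whereas Bergmann glia and astrocytes clear potassium through a glial inward rectifier.

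Libraries held between 15391854 and 17178478 counts assigned to genes. The level of 3 counts, below which a value was not told from 0, corresponded to 0.173 to 0.196 CPM. CPM are counts scaled by the library total of the genes kept for testing and by a between-library normalization factor (TMM). *Atoh1*, which specifies granule neuron progenitors, had 501, 491 and 481 counts in the controls and 10, 4 and 4 in the mutants. *Tox3* itself had 987, 968 and 1003 counts in the controls and 959, 970 and 951 in the mutants (log2 fold change −0.11, SE 0.07, adjusted p = 0.252); the count covers all exons and the deleted exon was not located here, so it checks no label. *Xist* was high in control 2, control 3 and mutant 2, and the Y-linked *Ddx3y* in the other three libraries, so both sexes were present in each group. In whole tissue, fewer cells of a type and less RNA per cell cannot be told apart.

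A gene was taken as differentially expressed at an adjusted p below 0.01 and a log2 fold change beyond 0.5 (mutant over control, edgeR quasi-likelihood test). Of the 94 genes, 79 passed the filter on low counts. 4 of them, *Kcnj6*, *Kcnk9*, *Kcnj3* and *Kcnd3*, were downregulated (5.06% of those tested, beside 3.63% of all 17505 tested genes). 6, among them *Kcna4*, *Kcns1*, *Kcnj10*, *Kcnn2* and *Kcnc4*, were upregulated (7.59%, beside 3.03%). In either direction, 6.66% of all tested genes passed. By adjusted p alone 5 were lower (6.33%, beside 7.24% of all genes) and 13 higher (16.5%, beside 6.55%). In 14 genes every mutant library lay below every control (17.7%, beside 20.1%), and in 27 every mutant lay above (34.2%, beside 20.4%), while the groups overlapped in 38. At an unadjusted p under 0.05, 14 were lower and 26 higher, beside 37.1% of all genes in either direction. The median log2 fold change was 0.17 over the 79 genes and −0.01 over all tested genes, and 48 of the 79 were positive. That median was 0.11 without control 2 and 0.07 without mutant 3. Upregulated genes numbered 3 without control 3. With limma on log2(FPKM + 1), *Kcnc4*, *Kcnd3*, *Kcnn2* and *Kcns1* did not pass both thresholds, and without a filter on low FPKM *Kcnj3* and *Kcna4* did not either.

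Among the 15 genes that were not tested, *Kcnj1* and *Kcna10* were at 0 in every library, 5 genes in all had at most 3 counts in any library, and 6 reached 10 counts in at least one. The highest count among them was 20, for *Kcns3* in mutant 2.

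**Figure D1:**
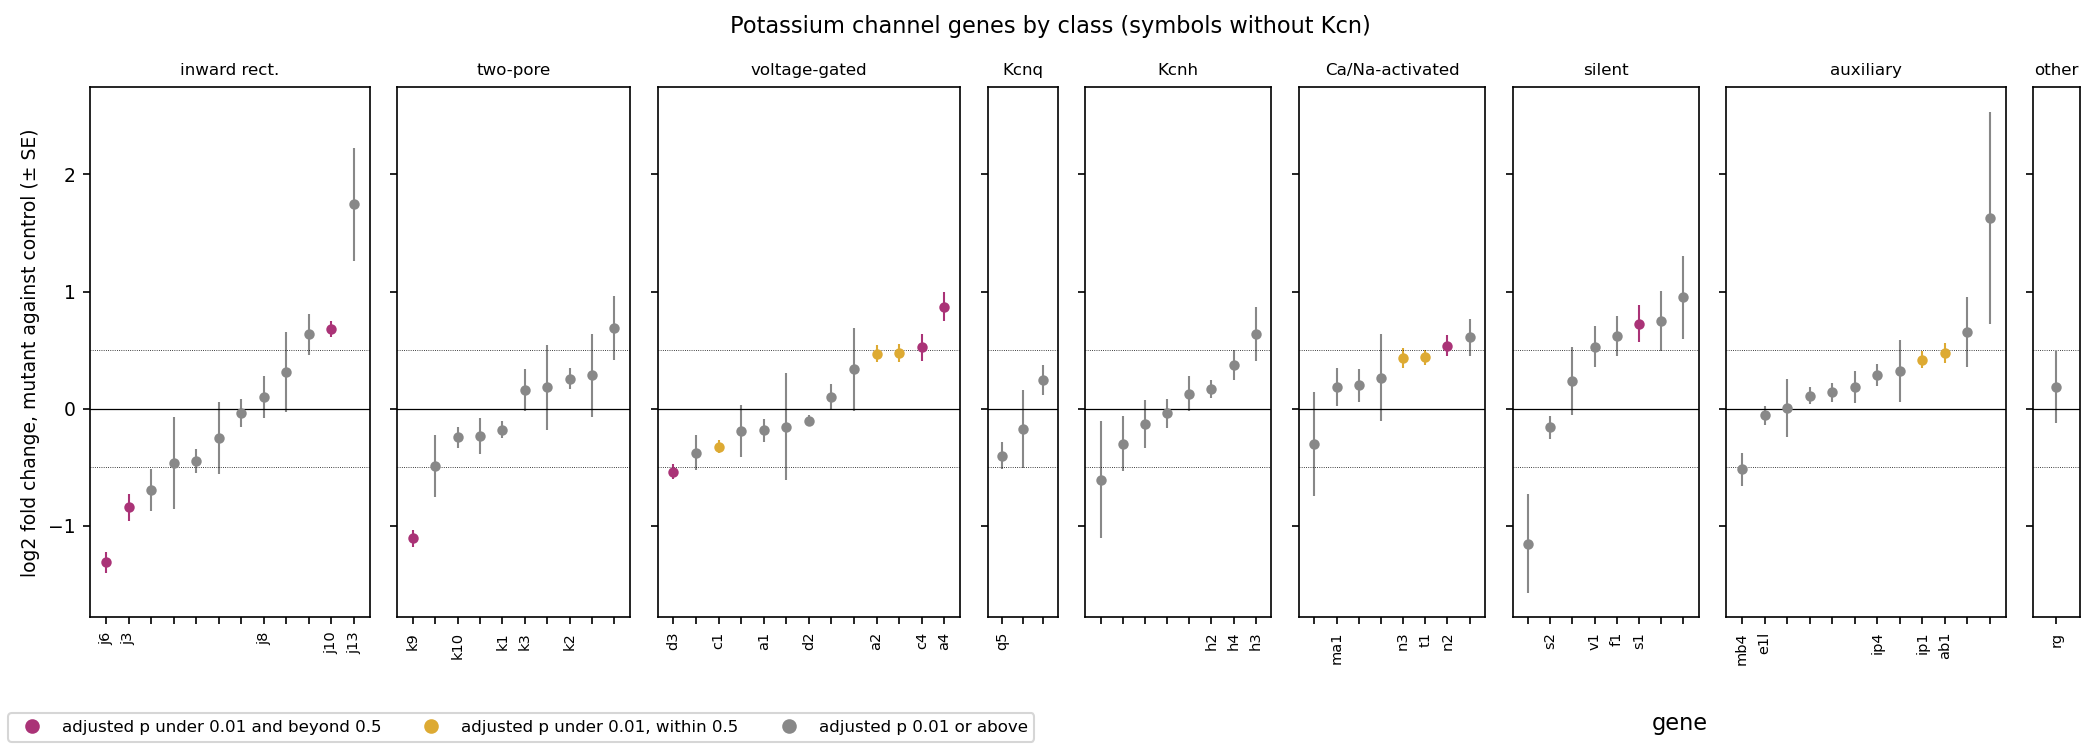
Log2 fold change of mutant over control for 75 tested genes (vertical axis, points with SE bars), by class and ordered within each class, with the symbols of named genes written without Kcn. The 4 lowest significant points are Kcnj6, Kcnk9, Kcnj3 and Kcnd3, and dotted lines mark a log2 fold change of 0.5 in either direction.

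The inward rectifiers held the most strongly downregulated member. *Kcnj6* (ENSMUSG00000043301, chr16:94748636-94997701 on GRCm38, minus strand) and *Kcnj3* (ENSMUSG00000026824, chr2:55435970-55598145, plus strand) encode GIRK2 and GIRK1, subunits that assemble into the channel opened by G protein-coupled receptors. A missense mutation of *Kcnj6* underlies the weaver mouse, in which cerebellar granule neurons are lost. The 250 bases upstream of a RefSeq start of each are shown because these were the downregulated members of the class. Capitals mark E-boxes that a script searched for on both strands, either CAGCTG, which is its own reverse complement, or CAGATG, read as CATCTG on the opposite strand (GRCm38.p6, written 5′ to 3′ on the gene strand).
Kcnj6, chr16:94997697-94997946, minus strand: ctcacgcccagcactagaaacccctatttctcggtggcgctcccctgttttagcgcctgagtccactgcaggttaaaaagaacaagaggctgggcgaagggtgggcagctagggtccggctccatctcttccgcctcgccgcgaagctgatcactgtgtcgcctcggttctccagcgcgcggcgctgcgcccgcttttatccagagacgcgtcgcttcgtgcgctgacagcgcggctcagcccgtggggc
Kcnj3, chr2:55435720-55435969, plus strand: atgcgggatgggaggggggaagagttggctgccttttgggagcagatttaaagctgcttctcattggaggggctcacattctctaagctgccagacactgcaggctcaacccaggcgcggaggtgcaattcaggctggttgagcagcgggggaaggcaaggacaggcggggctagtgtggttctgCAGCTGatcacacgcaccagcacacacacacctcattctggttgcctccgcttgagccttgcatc
*Kcnj6* held neither motif in this window or upstream of another RefSeq start (chr16:94856691-94856940), and *Kcnj3* held a single CAGCTG beginning 65 bases before the start. Of 32851 mouse promoter windows of this length, 13.0% held CAGCTG, 14.4% CAGATG and 25.5% at least one of them, and 34 of the 94 windows of potassium channel genes did (36.2%, from 69 matched genes). These matches describe letters only.

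*Kcnj6* was measured at 41.7, 45.3 and 45.4 CPM in the controls and at 16.8, 19.7 and 16.9 CPM in the mutants. All mutant libraries lay far below all controls, a 2.48-fold decrease (log2 fold change −1.31, SE 0.09, adjusted p = 1.48e-05). *Kcnj3* was at 38.2, 40.6 and 37.8 CPM in the controls and 24.9, 22.2 and 17.9 CPM in the mutants. Its groups were also apart, with a 1.79-fold decrease (log2 −0.84, SE 0.11, adjusted p = 0.000676). Both retained their direction in every alternative fit. *Kcnj3* shares 31.1% of its exon bases with *Gm26794* on the opposite strand, which had 31 to 47 counts in the controls and 10 to 16 in the mutants, against 586 to 624 and 287 to 432 for *Kcnj3*. *Kcnj6* shares 5.0% with *Gm41505* on the opposite strand. That gene had 228, 300 and 235 counts in the controls and 138, 106 and 116 in the mutants, against 641 to 707 and 272 to 302 for *Kcnj6*.

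The other G protein-gated subunits did not pass the test. *Kcnj9*, which encodes GIRK3, was at 8.85, 8.59 and 9.18 CPM in the controls and 8.94, 7.95 and 9.03 CPM in the mutants, with overlapping groups (log2 −0.04, SE 0.12, adjusted p = 0.847). *Kcnj5* was at 1.56 CPM or less in every library. Per length, mean FPKM of *Kcnj3* went from 7.39 ± 0.29 (SD, n = 3) in control to 4.13 ± 0.68 in mutant, of *Kcnj6* from 5.73 ± 0.27 to 2.32 ± 0.20, and of *Kcnj9* from 2.05 to 2.01. The log2 ratio of *Kcnj6* to *Kcnj9* in FPKM was 1.48 ± 0.08 in control and 0.21 ± 0.23 in mutant, so the levels of the pair were closer in the mutants. The ratio of *Kcnj6* to *Kcnj3* was −0.37 ± 0.07 in control and −0.82 ± 0.26 in mutant. In both ratios the groups did not overlap, which gives an exact two-sided permutation p = 0.1, the smallest that 3 against 3 libraries allow (0.111 adjusted over 10 ratios, whose genes were chosen with their values known).

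*Kcnj10* (ENSMUSG00000044708, chr1:172341210-172374085, plus strand) encodes the inward rectifier of astrocytes and Bergmann glia and was the member of this class with the highest level. Its upstream window, shown as that of the upregulated member of the class, held neither motif.
Kcnj10, chr1:172340960-172341209, plus strand: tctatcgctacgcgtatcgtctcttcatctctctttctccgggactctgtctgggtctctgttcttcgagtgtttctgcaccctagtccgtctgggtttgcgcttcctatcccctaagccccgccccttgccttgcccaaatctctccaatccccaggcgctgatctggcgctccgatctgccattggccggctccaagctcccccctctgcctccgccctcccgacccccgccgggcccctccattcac
It was at 68.2, 68.4 and 59.5 CPM in the controls and 100.5, 105.8 and 108.3 CPM in the mutants. Every mutant exceeded every control, a 1.60-fold increase (log2 0.68, SE 0.07, adjusted p = 0.000105) that passed in all 17 alternative fits. Its mean level was 11.99 ± 0.93 FPKM in control and 19.3 ± 0.72 FPKM in mutant (SD, n = 3). *Kcnj16*, whose product pairs with that of *Kcnj10* in glia, was at 4.30 to 4.95 CPM in the controls and 5.77 to 8.28 CPM in the mutants without passing the test (log2 0.64, SE 0.18, adjusted p = 0.026).

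The remaining rectifiers fell short of the threshold. *Kcnj11*, the pore subunit of the neuronal ATP-sensitive channel, was at 18.0, 17.8 and 17.9 CPM in the controls and 12.5, 12.3 and 14.8 CPM in the mutants (log2 −0.45, SE 0.10, adjusted p = 0.0101). *Abcc8*, its sulfonylurea receptor partner, had a log2 fold change of −0.43 (adjusted p = 0.00478). *Kcnj8*, the pore subunit of the same kind of channel in pericytes, was at 4.88 to 7.88 CPM in the controls and 6.75 to 7.16 CPM in the mutants (log2 0.10, SE 0.18). *Kcnj12* had a log2 fold change of −0.70 (SE 0.18, adjusted p = 0.0174). *Kcnj13*, a rectifier of choroid plexus epithelium, had 7, 6 and 5 counts in the controls and 30, 10 and 25 in the mutants (log2 1.74, SE 0.48, adjusted p = 0.0231). It shares 49.1% of its exon bases with *Gigyf2* on the opposite strand. *Gigyf2* had 1142 to 1379 counts per library, and the use of strand in counting is unknown, so the few *Kcnj13* counts may include its reads. Summed over the class, the inward rectifiers were at 39.7 ± 1.45 FPKM in control and 39.7 ± 0.97 FPKM in mutant (exact permutation p = 1).

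**Figure D2:**
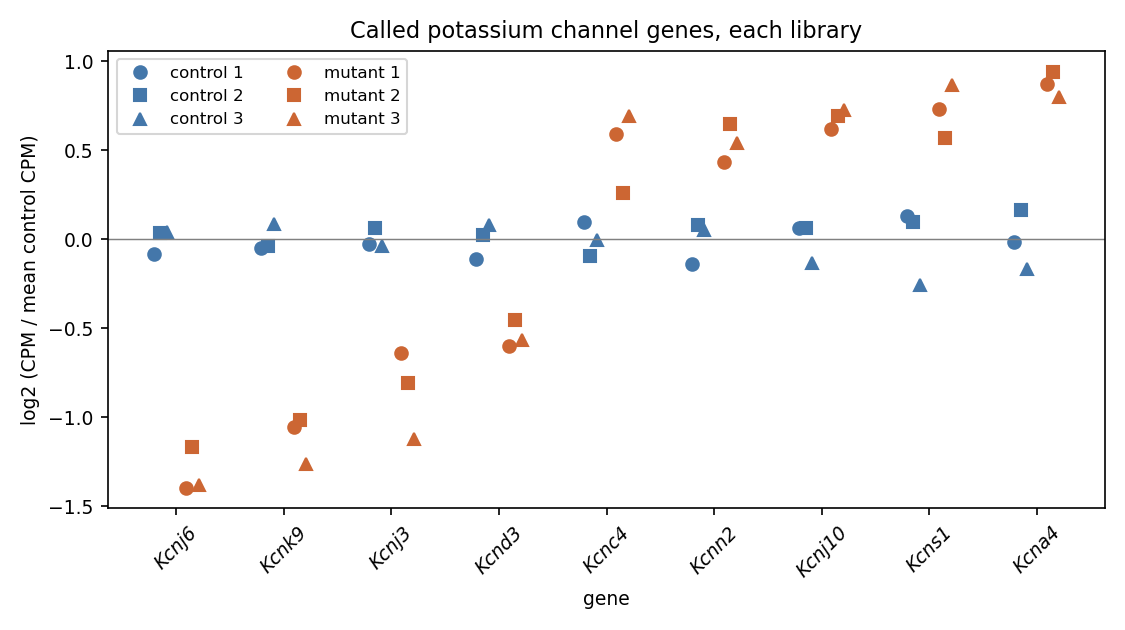
Each library of 9 differentially expressed potassium channel genes, as log2 of its CPM over the mean control CPM (vertical axis), with control libraries in blue and mutant libraries in orange and the replicate number given by the marker shape. In each gene the 3 mutant libraries lie on one side of the 3 controls.

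Of the 14 two-pore channels, 10 were tested, 1 was downregulated and none was upregulated. *Kcnk9* (ENSMUSG00000036760, chr15:72501089-72546340, minus strand) encodes an acid-sensitive leak channel of the TASK family that is known from cerebellar granule neurons. It was at 193.7, 194.9 and 212.2 CPM in the controls and 96.3, 99.1 and 83.6 CPM in the mutants. The 2.15-fold decrease (log2 −1.11, SE 0.07, adjusted p = 9.61e-06) was the member with the smallest p, at position 45 among all tested genes, and it passed in all 17 alternative fits. Its mean FPKM went from 16.1 ± 0.84 to 7.52 ± 0.64 (SD, n = 3).

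The other two-pore members did not pass. *Kcnk1*, the weakly conducting TWIK channel, was at 32.4 to 36.2 CPM in the controls and 30.2 to 31.1 CPM in the mutants (log2 −0.18, SE 0.08, adjusted p = 0.12). *Kcnk3*, the closest relative of *Kcnk9*, was at 8.46 to 14.3 CPM in the controls and 11.1 to 13.8 CPM in the mutants (log2 0.16, SE 0.18). The mechanically gated *Kcnk2* and *Kcnk10* had log2 fold changes of 0.26 (adjusted p = 0.06) and −0.24 (adjusted p = 0.0804). In FPKM, *Kcnk9* and *Kcnk1* were at near equal levels in control (log2 ratio 0.07 ± 0.15) and *Kcnk9* was lower in mutant (−0.86 ± 0.12). The log2 ratio of *Kcnk9* to *Kcnk3* was 2.58 ± 0.32 in control and 1.28 ± 0.27 in mutant. Both ratios had groups that did not overlap (exact permutation p = 0.1, the smallest possible). The class summed to 52.9, 52.0 and 52.9 FPKM in the controls and to 43.0, 43.4 and 43.5 FPKM in the mutants, and its share of the summed FPKM of all members went from 14.8% to 11.8%. Most of that difference lay in *Kcnk9*, whose mean went from 16.1 to 7.52 FPKM while the class mean went from 52.6 to 43.3. The tested members of the class had 5 negative and 5 positive fold changes (median log2 −0.008).

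Among the voltage-gated subunits, 15 of 17 were tested, 1 was downregulated and 2 were upregulated. *Kcnd3* (ENSMUSG00000040896, chr3:105452330-105674002, plus strand) is a pore subunit of the A-type current. No window was matched for *Kcnk9*, so that gene was not searched. The window of *Kcnc4* held neither motif, and that of *Kcnn2* is not reported here. The upstream window of *Kcnd3* is shown because it held a motif match, a CAGCTG beginning 232 bases before the RefSeq start.
Kcnd3, chr3:105451640-105451889, plus strand: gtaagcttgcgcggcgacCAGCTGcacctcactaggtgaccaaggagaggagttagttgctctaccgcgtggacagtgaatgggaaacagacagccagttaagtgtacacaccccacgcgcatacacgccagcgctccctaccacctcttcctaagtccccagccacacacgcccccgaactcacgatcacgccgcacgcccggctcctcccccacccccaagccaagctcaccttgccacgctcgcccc
*Kcnd3* was at 130.3, 143.0 and 149.0 CPM in the controls and 93.0, 102.8 and 95.2 CPM in the mutants. The groups were apart (log2 −0.54, SE 0.06, adjusted p = 0.000326), and the adjusted p stayed below 0.01 in all 17 alternative fits. The fold lay close to the threshold, being −0.495 on the log2 scale without control 3 and with a gene length trend removed, and −0.493 with the *Ddx3y* level as a covariate, all within the 0.5 limit. *Kcnd2*, the other main A-type subunit, was at 96.0, 97.4 and 96.7 CPM in the controls and 90.6, 89.4 and 90.4 CPM in the mutants and did not pass (log2 −0.10, SE 0.05, adjusted p = 0.141). In FPKM the log2 ratio of *Kcnd3* to *Kcnd2* was −0.36 ± 0.09 in control and −0.79 ± 0.09 in mutant, without overlap (exact permutation p = 0.1).

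*Kcna4* (ENSMUSG00000042604, chr2:107290639-107298502, plus strand), an inactivating subunit of the Shaker family, was the most strongly upregulated member. It was at 7.42, 8.40 and 6.68 CPM in the controls and 13.7, 14.4 and 13.0 CPM in the mutants, a 1.83-fold increase (log2 0.87, SE 0.12, adjusted p = 0.000817). Its upstream window held one CATCTG, beginning 195 bases before the RefSeq start. Of the other Shaker subunits, *Kcna2* (log2 0.47, adjusted p = 0.00134) and *Kcna6* (log2 0.48, adjusted p = 0.00156) were higher by adjusted p with folds inside the limit. *Kcna6* shares 39.6% of its exon bases with *Gm26673* on the opposite strand, which had 0 to 4 counts per library. *Kcna1*, known for its role in cerebellar basket cell terminals and in episodic ataxia, did not pass (log2 −0.19, SE 0.10, adjusted p = 0.189).

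The Kcnc subunits allow fast spiking. *Kcnc4* (ENSMUSG00000027895, chr3:107438303-107459552, minus strand) was at 22.8, 19.99 and 21.3 CPM in the controls and 32.1, 25.6 and 34.4 CPM in the mutants (log2 0.53, SE 0.12, adjusted p = 0.00863). That call was lost without control 1, 2 or 3 or without mutant 1 or 3, with a log2 fold change of 0.436 to 0.575 and an adjusted p of 0.0156 to 0.0396, and also with the *Ddx3y* covariate (log2 0.44). *Kcnc1* was lower by adjusted p alone, at 201.2, 195.9 and 196.0 CPM in the controls and 162.5, 147.1 and 164.4 CPM in the mutants (log2 −0.32, SE 0.05, adjusted p = 0.0018). Of the 10 ratios computed 9 had groups apart, and the exception was *Kcnn2* to *Kcnma1*, at −0.74 ± 0.17 in control and −0.38 ± 0.22 in mutant (exact permutation p = 0.2). Most pairs were chosen with a gene already past both thresholds in these libraries, so that count adds no support. Among single tested genes the groups were apart in 20.1% (lower) and 20.4% (higher). As a class the voltage-gated subunits had the highest summed level, 108.4 ± 2.15 FPKM in control and 107.0 ± 1.33 FPKM in mutant (SD, n = 3, exact permutation p = 0.4).

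**Figure D3:**
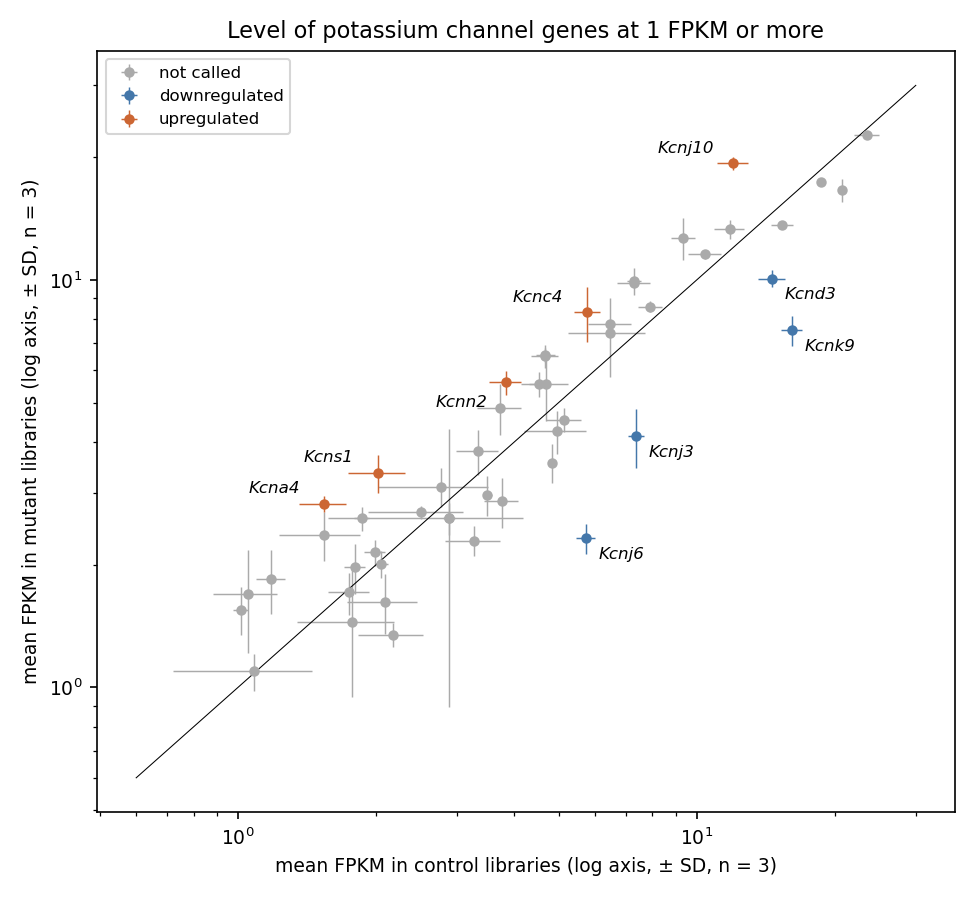
Mean FPKM in mutant against mean FPKM in control for 50 members at 1 FPKM or more in both groups, on log axes with SD bars (n = 3) and the line of equality. Kcnk9, Kcnd3, Kcnj3 and Kcnj6 lie below the line and Kcnj10 is the upregulated member with the highest level.

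All 8 calcium- or sodium-activated channels were tested and 7 of them had a positive fold change. *Kcnn2* (ENSMUSG00000054477, chr18:45268860-45686024, plus strand) encodes SK2, a small-conductance calcium-activated channel that shapes firing of cerebellar neurons. It was at 25.8, 29.95 and 29.3 CPM in the controls and 38.3, 44.3 and 41.2 CPM in the mutants (log2 0.54, SE 0.09, adjusted p = 0.00198). Without control 1 the log2 fold change was 0.48, and without mutant 2 it was 0.50 (0.496), both inside the limit with an adjusted p of 0.00707 and 0.00398. *Kcnn3* (log2 0.44, adjusted p = 0.00453) and the sodium-activated *Kcnt1* (log2 0.44, adjusted p = 0.000935) were higher by adjusted p alone. The large-conductance channel *Kcnma1* ranged from 90.1 to 132.4 CPM in the controls and from 103.0 to 158.2 CPM in the mutants, with overlapping groups (log2 0.19, SE 0.16, adjusted p = 0.445). The class summed to 29.5 ± 2.07 FPKM in control and 39.0 ± 3.08 FPKM in mutant.

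Electrically silent subunits do not form channels alone and modify Kcnb channels. Of 10 such genes 8 were tested, and *Kcns1* (ENSMUSG00000040164, chr2:164163619-164171113, minus strand) was upregulated. It was at 6.05, 5.92 and 4.62 CPM in the controls and 9.17, 8.21 and 10.1 CPM in the mutants (log2 0.73, SE 0.16, adjusted p = 0.00755). Its upstream window held a CAGCTG, beginning 157 bases before the RefSeq start. The call was lost without control 1, 2 or 3 or without mutant 1 or 3, where the log2 fold change was 0.61 to 0.80 and the adjusted p 0.0145 to 0.0333. *Kcnf1* had a log2 fold change of 0.62 (adjusted p = 0.024) and *Kcnv1* of 0.53 (adjusted p = 0.0482). *Kcns2*, the silent subunit at 13.7 to 16.7 CPM over all libraries, had overlapping groups. The class was the lowest of the larger classes per length, at 8.74 ± 0.34 FPKM in control and 11.4 ± 0.90 FPKM in mutant (SD, n = 3).

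In the Kcnq class, whose members carry the M-current, all 5 genes were tested. *Kcnq5* was at 26.6, 31.6 and 29.2 CPM in the controls and 18.5, 24.4 and 23.5 CPM in the mutants, without overlap, and did not pass (log2 −0.40, SE 0.12, adjusted p = 0.0315). None of the 8 Kcnh genes had an adjusted p below 0.01. *Kcnh2*, which encodes the ERG channel, had a log2 fold change of 0.17 (adjusted p = 0.122), *Kcnh3* of 0.64 (adjusted p = 0.0696) and *Kcnh4* of 0.38 (adjusted p = 0.0544).

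The auxiliary subunits bind the pore-forming ones and alter their gating or transport. Of 16 genes 12 were tested, and *Kcnip1*, a calcium-binding partner of the Kcnd subunits (log2 0.42, adjusted p = 0.00262), and *Kcnab1*, a cytoplasmic partner of the Shaker family (log2 0.48, adjusted p = 0.00372), were higher by adjusted p alone. *Kcnip4*, another Kcnd partner, was at 16.0 to 17.5 CPM in the controls and 18.6 to 21.3 CPM in the mutants (log2 0.29, adjusted p = 0.0468). *Kcnmb4*, the neuronal subunit of the large-conductance channel, had a log2 fold change of −0.52 (SE 0.14, adjusted p = 0.0222). *Kcne1l* was the member with the highest mean FPKM over all libraries and its groups overlapped, at 23.5 ± 1.46 FPKM in control and 22.6 ± 0.52 FPKM in mutant (SD, n = 3). *Kcnrg*, a regulator of channel assembly, did not pass (log2 0.18, SE 0.31).

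Summed over all members, FPKM was 353.6, 356.0 and 355.2 in the controls and 359.9, 364.6 and 371.9 in the mutants. Sums over the Kcnh, calcium- or sodium-activated, silent, auxiliary and two-pore classes and over all members were apart between the groups, each at an exact two-sided permutation p = 0.1, the smallest possible here (0.167 adjusted over 10 sums). The two-pore sum was the lower one in the mutants, mostly through *Kcnk9* alone, and the other 5 sums were higher.

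**Figure D4:**
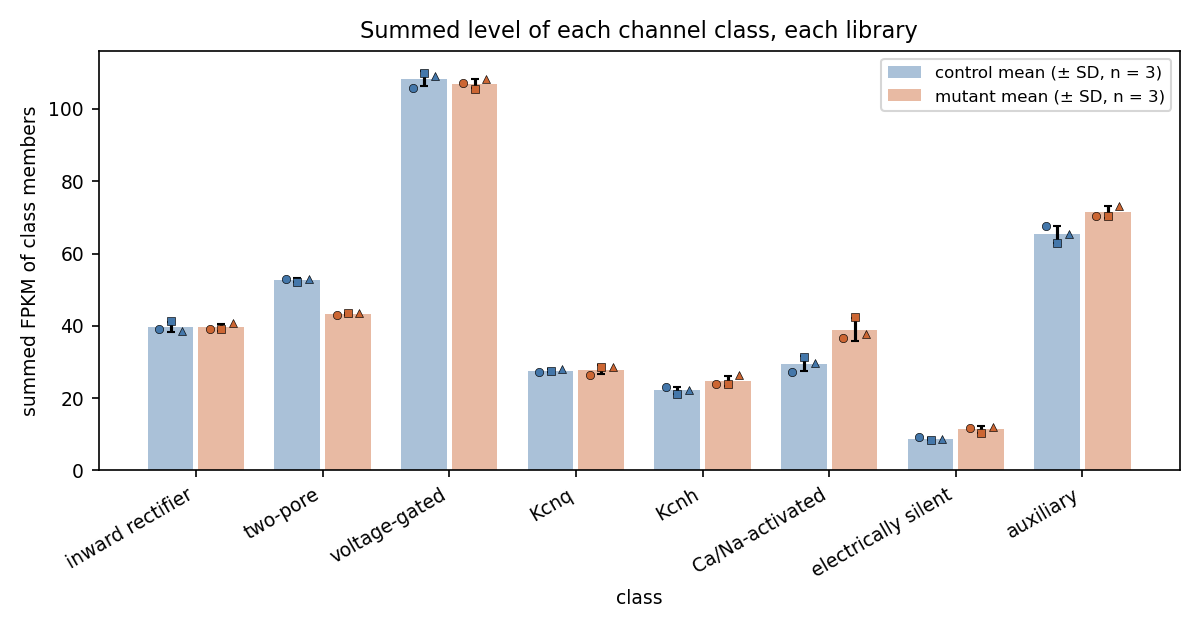
Summed FPKM of each channel class (vertical axis, from 0), with bars for the mean of 3 control and 3 mutant libraries, SD error bars and a point for each library. The two-pore bars stand at 52.6 and 43.3 FPKM, of which Kcnk9 holds 16.1 and 7.52 FPKM, and the inward rectifier bars at 39.7 FPKM in both groups.

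Genes that work with potassium channels were examined from a list of 28 auxiliary and scaffold proteins, pacemaker channels, sodium pump subunits and the potassium-chloride cotransporter, of which 27 were tested. 4 were upregulated and 1 was downregulated, and by adjusted p alone 8 were higher and 2 lower (median log2 fold change 0.24). Over all tested genes, 3.03% were upregulated and 3.63% downregulated. By adjusted p alone, 6.55% of all tested genes were higher and 7.24% lower. *Dpp10*, a transmembrane partner of the Kcnd subunits, was at 69.0, 71.5 and 71.3 CPM in the controls and 101.1, 104.8 and 104.0 CPM in the mutants (log2 0.55, SE 0.05, adjusted p = 6.61e-05). The sodium pump subunits *Atp1b1* (log2 0.57, adjusted p = 0.000152) and *Atp1b2* (log2 0.51, adjusted p = 0.000607) were upregulated. The cotransporter *Slc12a5* (log2 0.45, adjusted p = 0.00033) and the scaffold *Dlg2* (log2 0.24, adjusted p = 0.00324) were higher by adjusted p alone. *Cntn2*, an axonal adhesion molecule that clusters Shaker channels and is also a marker of differentiating granule neurons, was downregulated (log2 −0.79, SE 0.06, adjusted p = 1.79e-05). The number of these genes past both thresholds was 3 without mutant 1.

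Cell type markers moved with several of the channel genes, and their part in the results was not tested. Of 8 granule neuron progenitor markers 7 were downregulated, with a summed level of 1426 to 1545 CPM in the controls and 657.5 to 709.2 CPM in the mutants. Of 8 markers of differentiating granule neurons 7 were tested (*Gabra6*, at 2 to 8 counts, was not) and 6 were downregulated. That list summed to 1499 to 1612 CPM in the controls and 861.8 to 920.1 CPM in the mutants. The 4 downregulated channel genes stand beside these lists. Of 8 markers of astrocytes and Bergmann glia 3 were upregulated, at 3327 to 3375 CPM in the controls and 4399 to 4758 CPM in the mutants, the list beside *Kcnj10* and *Kcnj16*. Upregulated markers also numbered 5 of 8 for Purkinje cells (1555 to 1681 CPM in the controls and 2159 to 2646 in the mutants), 4 of 8 for GABAergic interneurons (676.6 to 705.4 and 924.0 to 961.3) and 5 of 7 for the oligodendrocyte lineage (502.0 to 538.4 and 657.7 to 704.3). Against their lists, *Lhx1* of the interneurons (log2 −0.38, adjusted p = 0.000778) and *Pdgfra* of the oligodendrocyte lineage (log2 −0.45, adjusted p = 0.000307) were lower by adjusted p alone.

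In pericytes none of 5 markers was called (375.4 to 403.0 CPM in the controls and 428.2 to 435.9 in the mutants), beside *Kcnj8*. The summed choroid plexus markers were at 127.8 to 195.2 CPM in the controls and at 216.3, 33.3 and 765.9 CPM in mutants 1, 2 and 3, with 1 of 5 genes downregulated (*Otx2*). *Ttr* alone held most of the sum in mutants 1 and 3, at 180.9, 6.06 and 710.7 CPM in mutants 1, 2 and 3. *Kcne2*, known from choroid plexus epithelium, had 16, 15 and 9 counts in the controls and 19, 3 and 109 in the mutants (log2 1.63, SE 0.91, adjusted p = 0.22). It was low in mutant 2 and high in mutant 3, as *Ttr*, *Folr1* and *Clic6* were. *Otx2* was level over the mutants (24.7, 22.0 and 24.0 CPM), and *Kl* was at 1.38 and 1.37 CPM in mutants 1 and 2. *Kcnj13* was also lowest in mutant 2 among the mutants. Of the remaining lists, 2 of 5 meningeal, 1 of 6 microglial, 1 of 5 nuclear neuron and 1 of 3 unipolar brush cell markers were upregulated, and none of 6 endothelial and none of 5 erythrocyte markers was called. The summed nuclear neuron markers were at 132.6 to 138.3 CPM in the controls and lower, at 123.9 to 130.2 CPM, in the mutants. By adjusted p alone, *Slc17a6* of that list (log2 −0.49, adjusted p = 0.000459) and *Eomes* of the unipolar brush cells (log2 −0.42, adjusted p = 0.00125) were lower. No marker was at 0 in every library.

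**Figure D5:**
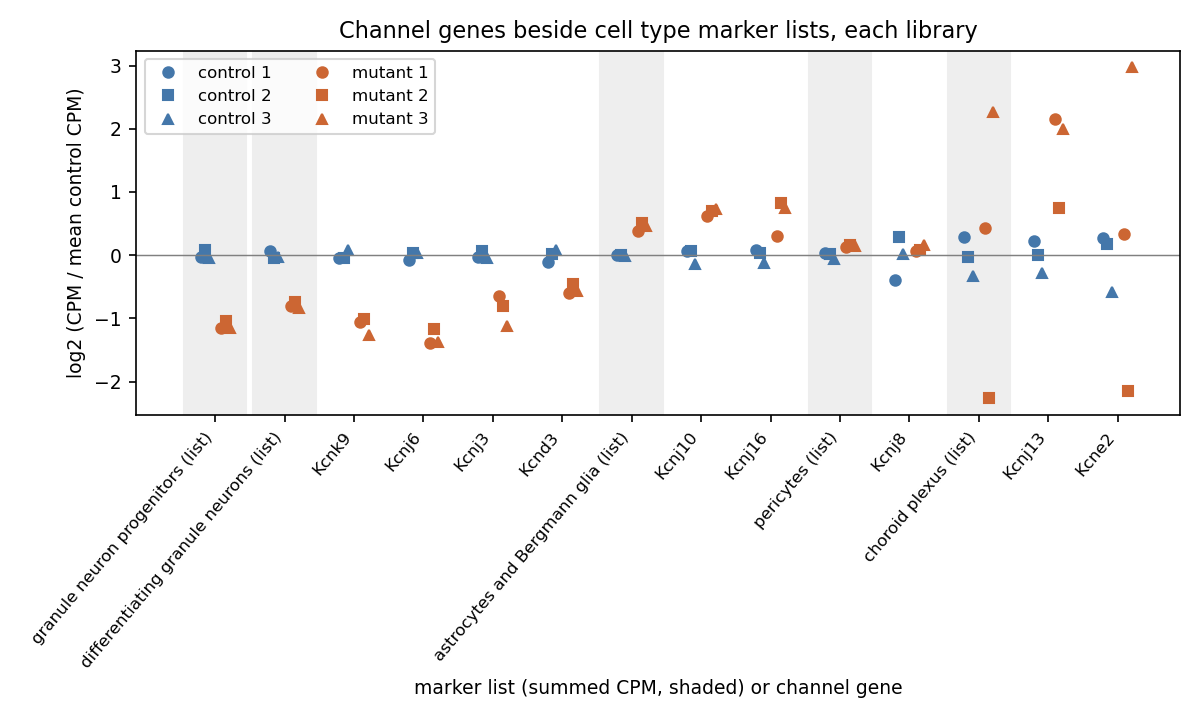
Summed CPM of marker lists (shaded) and CPM of channel genes as log2 over the mean control (vertical axis), for each library. Kcnk9, Kcnj6, Kcnj3 and Kcnd3 lie below the controls beside the granule neuron lists, Kcnj10 lies above beside the glial list, and Kcne2 is low in mutant 2 and high in mutant 3 beside the choroid plexus list.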

How the data were processed

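RNA-seq libraries were made from poly-T selected mRNA of cerebella in 3 control and 3 mutant libraries. The submitters' notes name HISAT2 2.0.5, featureCounts 1.5.0-p3 and the mm10 build, and the strand setting and annotation release are not given in the sources used here. The authors deposited raw counts per gene and FPKM values (fragments scaled by gene length and library size) for all 6 libraries. The table's coordinates matched GENCODE M21 (GRCm38) for 90 of the 94 members. Counts were fitted over all genes with edgeR 4.0.16 in R 4.3.3 (filterByExpr, TMM, quasi-likelihood test, Benjamini-Hochberg adjustment over 17505 tested genes, which held 99.8% of counts), with the thresholds the study used. Deposited FPKM served to compare levels between genes. CPM values are counts scaled by the library total over the tested genes, multiplied by the TMM factor of that library. Ratios and class sums were tested by exact two-sided permutation (scipy 1.17.1).

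The gene family and the lists were chosen with earlier results of these data known, while membership of the family followed the symbol alone. Named were all members past both thresholds, the member with the highest FPKM and up to 3 with the smallest p in each class, and a set with known cerebellar roles, and of the partner genes those past both thresholds and up to 3 others by p. A few further genes (*Kcnj5*, *Kcnj9*, *Kcnj11*, *Kcnj12*, *Kcnj16*, *Kcna6*, *Kcne2* and *Abcc8*) stand beside a partner or marker list, and *Kcna3*, *Kcnh7* and *Kcns3* for their spread or count, chosen after their values were seen where the rule did not name them. Some genes that the rule names are not reported here. Promoter windows came from RefSeq. The alternatives were DESeq2 1.42.0, limma 3.58.1 on log2 FPKM, other scalings and filters, covariates and leaving out libraries. The fit was tested on simulated data with known changes. The SE of a log2 fold change comes from the fit and includes the estimated spread between libraries. Each SD is taken over the 3 libraries of a group, and the floor of 3 counts is a fixed setting. No 2 libraries of a group were duplicates, since same-group libraries differed by more than sampling noise (chi-square per gene 3.66 to 10.2).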

Additional observations from a re-analysis of the deposited data

How the results depend on the processing

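No member past both thresholds changed sign under any alternative, nor did the median log2 fold change. *Kcnj6*, *Kcnk9* and *Kcnj10* passed both thresholds in all 17 alternative fits, *Kcnj3* and *Kcna4* in 16, *Kcnn2* in 13, *Kcnd3* in 12, *Kcns1* in 9 and *Kcnc4* in 8. Of the values of named members under the alternatives, 606 kept their side of the thresholds, 34 lost a call and 22 gained one. Downregulated members (4) numbered 2 with limma on log2(FPKM + 1) without a filter and 9 at an adjusted p below 0.05 without a fold limit, and 3 to 5 with a library left out. Upregulated members (6) numbered 10 without a filter on low counts, 2 with log2(FPKM + 1), 1 with log2(FPKM + 1) without a filter, 19 at an adjusted p below 0.05 and 13 at 0.01 without a fold limit, and 3 to 8 with a library left out. The median log2 fold change (0.17) was 0.11 with log2(FPKM + 1), 0.069 without its filter, and 0.072 to 0.182 with a library left out. Partner genes past both thresholds (5) numbered 3 with log2(FPKM + 1) without a filter, 15 at an adjusted p below 0.05 and 10 at 0.01 without a fold limit, and 3 to 6 with a library left out. The cause of these shifts was not tested beyond what each setting does by its construction.

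Control and mutant libraries share replicate numbers. The deviations of same-numbered libraries correlated at 0.243, 0.265 and −0.163, and those of differently numbered libraries at −0.416 to 0.268. With 3 libraries per group, these values cannot show whether the numbers pair the libraries. With the replicate number as a block, 4 members were downregulated and 7 upregulated (*Kcnf1* was added), the median was 0.17 and 5 partner genes passed. At this depth the 15 untested members allow no statement on a change.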

Other observations

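5 antisense genes carry Kcn symbols and lie outside the protein-coding members, and the counting's use of strand is unknown. *Kcnq1ot1*, the imprinted antisense RNA of the *Kcnq1* locus, had 393, 380 and 409 counts in the controls and 351, 377 and 275 in the mutants (log2 fold change −0.31, SE 0.12, adjusted p = 0.0941 with edgeR). *Kcnmb4os2* had 113, 89 and 144 counts in the controls and 103, 73 and 90 in the mutants (log2 −0.46, adjusted p = 0.113), with the same sign as *Kcnmb4*. *Kcnd3os* had 19, 23 and 15 counts in the controls and 13, 14 and 14 in the mutants (log2 −0.54, adjusted p = 0.275). *Kcnab3os* and *Kcnmb4os1* were too low to be tested.

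Some members varied more within groups than between them. *Kcna3* had 41, 100 and 115 counts in the controls and 65, 134 and 40 in the mutants, with the higher counts in control 2, control 3 and mutant 2. *Kcnh7* had 319, 518 and 422 counts in the controls and 284, 476 and 307 in the mutants. *Kcnma1* had the same order of libraries as *Kcnh7* within each group, at 90.1, 132.4 and 110.3 CPM in the controls and 103.0, 158.2 and 117.5 CPM in the mutants. In each of these 3 genes, chosen after their values were seen, the highest mutant was mutant 2, which was also the mutant library with *Xist* counts (30428, beside 8 and 5) and the lowest choroid plexus sum.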
